A study of Mus musculus with 19 samples.

Results

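Platelets and the megakaryocytes that shed them were followed through 8 mouse genes: Tubb1, Pf4, Ppbp, Treml1, Itga2b, Itgb3, Gp1ba and Gp9. They are 8 of the 55487 genes in each deposited table and were chosen by symbol, with their values in knockout and wild-type cords in view and because Tubb1 was absent from wild type. Differences between those cords are therefore a description and carry no test. The study profiled RNA in 19 libraries and concerned the part of the microRNA miR-146a in motor neuron degeneration. Spinal cords gave 9 libraries from animals of genotype miR-146a KO and 4 from wild-type animals, and the cords were snap-frozen. Motor neurons of wild-type genotype, derived from the mouse embryonic stem cell line RW.4 with retinoic acid and SAG, a Smoothened agonist, gave 3 libraries after 10 nM miR-146a LNA and 3 after 10 nM control LNA, each for 72 h. An LNA is a stabilised oligonucleotide that blocks a microRNA. Age, sex, litter, batch and the kind of knockout allele are not in the labels. Whether each library of a group had its own animal or culture is not stated either, so the spread behind each p-value is that between these libraries and may be technical. Below, a cord or a culture stands for 1 library.

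Platelets have no nucleus and carry RNA inherited from the megakaryocyte, a large polyploid cell of the bone marrow. They adhere to damaged vessel walls through surface glycoproteins and release chemokines and clotting proteins from their granules. In healthy tissue they are found inside vessels. In these bulk libraries fewer platelets and less platelet RNA per platelet cannot be told apart.

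The cord libraries held 28163289 to 39577247 counts each, and the cultures 40647549 to 65471742. Levels are given as CPM, a gene's count scaled to a fixed library total, on which 3 counts were worth 0.0758 to 0.107 in a cord and 0.0458 to 0.0738 in a culture. Such limits allow for counting error alone. Among counts of 1 to 10, 72.2% to 75.9% were even in cords and 62.4% to 67.3% in cultures, and whether 1 fragment gave more than 1 count was not tested, so the limits may be too low. Markers of neurons, glia and microglia were all present in knockout and wild-type cords (12 of 12 listed genes), and all 8 listed motor neuron genes were detected in miR-146a LNA and control LNA cultures. The precursor gene Mir146 had 1 count over the knockout cords and 0 counts over the wild-type cords, so it could not check the labels. Pttg1, chosen after its values were seen because it separated most knockout cords from wild type, had 1.07 to 1.81 CPM in 8 knockout cords and 14.8 to 17.4 CPM in wild-type cords, but 13.6 CPM in the library labelled knockout replicate 9. That library also held Sod1, which encodes a superoxide dismutase, at 2031 CPM, against 261 to 276 CPM in wild-type cords. Knockout replicate 7 stood apart through muscle and bone genes, with the muscle actin Acta1 at 2436 CPM, against 1.08 to 5.97 CPM in wild-type cords. Values that rest on either of these libraries are given with and without both, which are called the libraries that stand apart. The label of the library labelled knockout replicate 9 is in doubt, and every direction given for knockout cords rests on the labels as deposited.

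The microRNA that the knockout and the LNA target and the promoters of members are shown first. The mature miR-146a-5p of mouse lies at chr11:43374435-43374456 on the minus strand of GRCm38.p6, from RefSeq, with its seed in capitals.
miR-146a-5p: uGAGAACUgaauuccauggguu
The DNA letters AGTTCTC, which pair with that seed, were searched on the transcript strand of annotated 3′ UTRs. None of the 7 members with an annotated 3′ UTR held them, Tubb1 having no annotated one, against 10.0% of 20729 genes. Irak1 and Traf6, textbook targets of miR-146a, held 2 and 4 such matches. The absence says only that these letters are not in these UTRs.

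RefSeq promoter windows of GRCm38.p6, from 250 bases before to 50 after the annotated start, were found for 7 of the 8 members, and Itgb3 was not matched. Those of Tubb1 and Ppbp, whose cord groups did not overlap, are printed with that of Pf4, the neighbour of Ppbp, and that of Gp1ba, whose cord groups overlapped. Capitals mark matches on either strand to AGATAA and its variant TGATAA, letters known for GATA factors, and to AGGAAG and its variant CGGAAG, letters known for ETS factors. The windows are chr2:174450345-174450644, chr5:90768268-90768567, chr5:90772185-90772484 and chr11:70638872-70639171, all on the plus strand. RefSeq places the start of Tubb1 before the gene start of the annotation used for coordinates.
Tubb1: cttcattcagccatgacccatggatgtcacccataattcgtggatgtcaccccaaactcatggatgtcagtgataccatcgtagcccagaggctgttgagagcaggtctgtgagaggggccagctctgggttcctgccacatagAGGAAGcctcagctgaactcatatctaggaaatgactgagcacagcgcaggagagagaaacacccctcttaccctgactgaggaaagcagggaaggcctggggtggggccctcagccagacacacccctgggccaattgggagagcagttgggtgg
Ppbp: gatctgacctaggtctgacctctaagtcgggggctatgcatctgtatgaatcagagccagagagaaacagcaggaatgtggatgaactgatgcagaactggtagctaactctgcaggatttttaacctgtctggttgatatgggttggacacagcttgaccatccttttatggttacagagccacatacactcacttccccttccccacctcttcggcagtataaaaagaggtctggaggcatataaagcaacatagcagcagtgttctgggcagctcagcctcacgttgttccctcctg
Pf4: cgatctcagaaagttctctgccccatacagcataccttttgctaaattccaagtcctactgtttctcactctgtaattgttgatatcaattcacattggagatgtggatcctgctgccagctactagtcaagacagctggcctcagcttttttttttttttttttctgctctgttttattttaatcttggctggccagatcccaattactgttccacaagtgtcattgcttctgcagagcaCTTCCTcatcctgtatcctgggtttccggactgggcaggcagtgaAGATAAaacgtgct
Gp1ba: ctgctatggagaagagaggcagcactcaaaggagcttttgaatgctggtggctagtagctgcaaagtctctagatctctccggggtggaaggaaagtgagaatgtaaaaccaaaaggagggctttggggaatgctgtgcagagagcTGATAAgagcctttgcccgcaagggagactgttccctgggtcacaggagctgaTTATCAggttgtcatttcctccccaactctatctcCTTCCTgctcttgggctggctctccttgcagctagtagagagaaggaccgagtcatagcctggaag
A GATA match stood in 2 of the 7 windows, those of Pf4 and Gp1ba, against 18.6% of 32851 windows of the same length. ETS matches stood in 5 of the 7 windows, against 46.5% of all. The Ppbp and Treml1 windows held neither, and the windows of Pf4 and Gp1ba held both, which 7.7% of all windows do. The letters TGAGTCA and their variant TGACTCA, the core of the NF-E2 motif, stood in 0 of the 7 windows and in 5.2% of all, and TGTGGT with its variant TGCGGT, the RUNX letters, stood in 1 of the 7, that of Gp9, and in 22.4% of all. In the 4 printed windows no match overlapped another. A match is a description of the letters, and no match draws nothing about a factor.

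In cords, Tubb1 and Ppbp were found at low levels in every knockout library and were at 0 or nearly so in wild-type libraries. Treml1, Pf4 and Gp9 had higher means in knockout cords, with groups that overlapped. Itga2b was higher in 8 of 9 knockout cords by a small margin, and Itgb3 and Gp1ba had ratios of means of 1.03 and 0.941. The cultures held Itga2b, Itgb3 and a little Gp1ba, and hardly a count of the other 5 genes.

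Tubb1, the beta-tubulin of the platelet's marginal ring, is on GRCm38 chromosome 2 from 174450695 to 174457882 on the plus strand. Its count ran from 2 through a median of 18 to 39 in the 9 knockout cords, against 0, 0, 0 and 0 in the wild-type cords. Every knockout cord held it, including the library labelled knockout replicate 9, and no library labelled wild type did. Were that label wrong, its 4 counts would be counts in a wild-type cord and the bounds given next would not hold. The level of Tubb1 was 0.471 ± 0.353 CPM in knockout cords (SD, n = 9) and 0 CPM in wild-type cords (n = 4). With counts pooled over the knockout libraries, the level was 0.489 CPM. Set against a limit of 3 counts over the 4 wild-type libraries together, this pooled level was at least 22.1-fold higher. It was at least 24.1-fold higher without both libraries that stand apart. These bounds allow for counting error alone and not for the spread between cords. Knockout replicates 4 and 8 were highest, at 1.04 and 0.939 CPM, and knockout replicate 1 lowest, at 0.0625 CPM, which is below its own 3-count limit. Of the 22174 genes that passed the count filter in cords, 4 (0.018%) had 0 counts in all wild-type cords. Such a gene can pass the filter only through the knockout cords. Tubb1 was also chosen for this absence, so nothing is read from that share.

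Ppbp and Pf4 encode chemokines stored in platelet alpha granules, the first giving CXCL7 and the second platelet factor 4. They are neighbours on GRCm38 chromosome 5, Ppbp from 90768518 to 90770063 and Pf4 from 90772435 to 90773383, both on the plus strand and 2372 bases apart. Ppbp had counts from 2 through a median of 12 to 49 in knockout cords, against 0, 2, 2 and 2 in the wild-type cords. All knockout cords were above all wild-type cords in CPM, though the library labelled knockout replicate 9 cleared them only narrowly, at 0.0710 CPM against a highest wild-type value of 0.0632 CPM, each from 2 counts. The mean was 0.618 ± 0.451 CPM in knockout cords (SD, n = 9) and 0.0437 ± 0.0294 CPM in wild-type cords (SD, n = 4), a ratio of 14.2, and 14.8 without both libraries that stand apart. The wild-type mean rests on 6 counts in all.

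Pf4 had counts from 0 through a median of 8 to 44 in knockout cords, against 4, 6, 6 and 9 in the wild-type cords. The groups overlapped: 4 knockout cords were above every wild-type cord and 3 were below every one, the library labelled knockout replicate 9 holding no count. Means were 0.436 ± 0.434 CPM in knockout cords (SD, n = 9) and 0.183 ± 0.0570 CPM in wild-type cords (SD, n = 4), a ratio of 2.38, or 2.23 without both libraries that stand apart. Unlike its neighbour Ppbp, it was present in every wild-type cord. That the pair differ in ratio was not tested.

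Treml1 encodes TLT-1, a receptor kept in platelet granules and brought to the surface on activation, on GRCm38 chromosome 17 from 48359916 to 48367176. Counts ran from 3 through a median of 9 to 26 in knockout cords, against 0, 1, 0 and 5 in the wild-type cords. It was detected in all 9 knockout cords and in 2 of the 4 wild-type cords, and 5 knockout cords were above every wild-type cord. Its mean was 0.256 ± 0.200 CPM in knockout cords (SD, n = 9) and 0.0427 ± 0.0685 CPM in wild-type cords (SD, n = 4), a ratio of 6.01, or 6.52 without both libraries that stand apart. Of the 6 wild-type counts 5 were in wild-type replicate 4. Without that library, left out after its values were seen, 1 wild-type count remained, against 84 in knockout cords. The ratio of pooled CPM was then 26.6, which rests on that 1 count and carries no test.

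Itga2b and Itgb3 encode the alpha and beta chains of the fibrinogen receptor, and Itgb3 also pairs with the alpha V chain in many other cells. Itga2b, on GRCm38 chromosome 11 from 102453297 to 102470122 on the minus strand, had counts from 160 through a median of 217 to 276 in knockout cords, against 153, 168, 169 and 193 in the wild-type cords. The groups overlapped in 1 library, and 8 of the 9 knockout cords lay above every wild-type cord. Means were 6.26 ± 0.975 CPM in knockout cords (SD, n = 9) and 5.03 ± 0.480 CPM in wild-type cords (SD, n = 4), a ratio of 1.24. Itgb3, also on chromosome 11 from 104608000 to 104670476, had counts from 203 through a median of 279 to 576 in knockout cords, against 282, 374, 264 and 240 in the wild-type cords. Knockout replicate 7 stood alone, at 14.6 CPM, and the other knockout cords overlapped the wild-type cords. The ratio of means was 1.03, and 0.930 without both libraries that stand apart.

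Gp1ba and Gp9 encode subunits of the receptor for von Willebrand factor, which tethers platelets to a vessel wall. Gp1ba, on GRCm38 chromosome 11 from 70639122 to 70642036, had counts from 40 through a median of 60 to 92 in knockout cords, against 82, 73, 52 and 56 in the wild-type cords. No knockout cord was above every wild-type cord and 3 were below every one, and the ratio of means was 0.941. Gp9, on chromosome 6 from 87778072 to 87779768, had counts from 6 through a median of 10 to 23 in knockout cords, against 4, 12, 0 and 4 in the wild-type cords. Only knockout replicates 3 and 7 were above every wild-type cord, and the ratio of means was 2.24, or 2.07 without both libraries that stand apart. Wild-type replicate 2 held 12 of the 20 wild-type counts, and without it the ratio was 3.96. None of the 8 genes shares exon bases with another annotated gene.

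**Figure D1:**
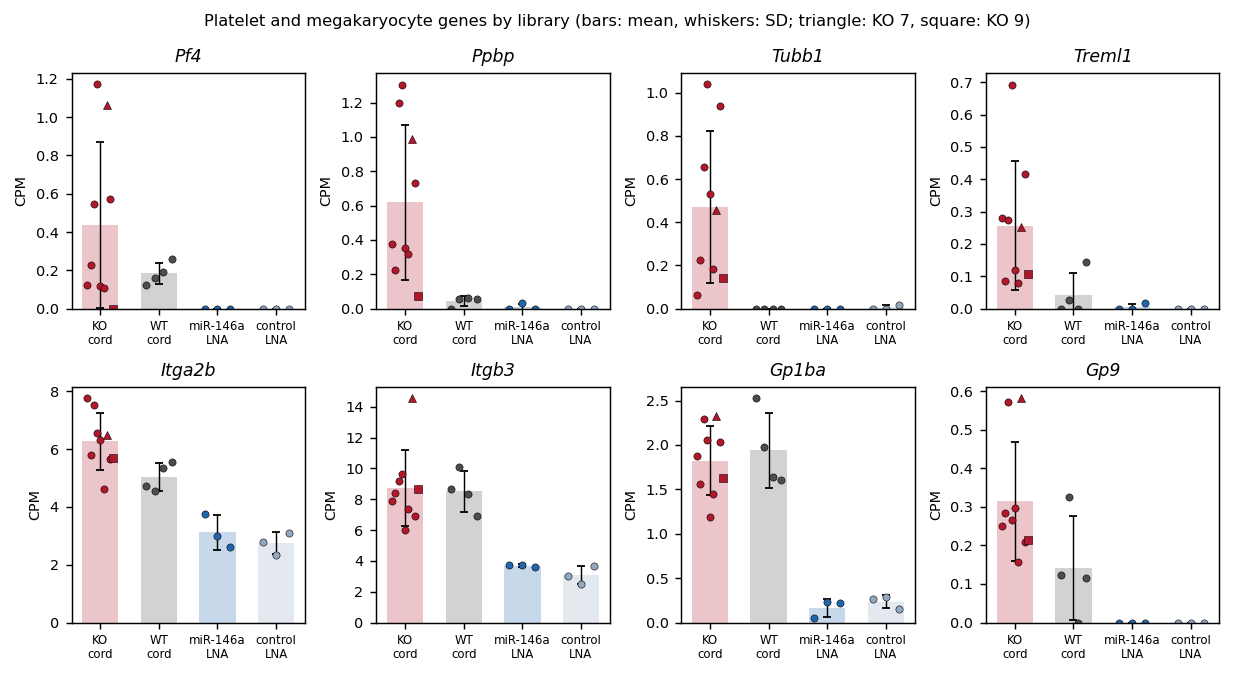
CPM of each gene (vertical axes) in every library of the miR-146a knockout (KO) cords, wild-type (WT) cords, miR-146a LNA cultures and control LNA cultures, with bars for means and whiskers for SD. Tubb1 was at 0 in all 4 wild-type cords and in 0 of 9 knockout cords, whereas Itgb3 and Gp1ba overlapped between the cord groups.

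Of the 8 genes, 2 (Tubb1 and Ppbp) had every knockout cord above every wild-type cord, which 168 of 22174 genes (0.758%) did, and 2 had it without both libraries that stand apart, which 1.33% of genes did. A ratio of means of at least 2 was reached by 5 of the 8 (Tubb1, whose wild-type mean was 0, Ppbp, Treml1, Pf4 and Gp9), against 7.12% of genes. Because the choice of genes used these values, nothing is read from these shares. The count filter was passed by 7 of the 8 in cords, and Treml1 did not pass.

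Per length, as TPM, which scales counts to transcript length and library total, Itgb3 was highest in knockout cords at 4.75 ± 1.48 TPM, followed by Itga2b at 3.66 ± 0.531 TPM and Gp1ba at 2.14 ± 0.478 TPM (SD, n = 9). Below them came Pf4 at 1.94 ± 1.95 TPM, Ppbp at 1.82 ± 1.33 TPM, Gp9 at 1.14 ± 0.581 TPM, Tubb1 at 1.07 ± 0.788 TPM and Treml1 at 0.579 ± 0.443 TPM. Only the step between Itga2b and Gp1ba exceeded the SD of both neighbours in knockout cords. In wild-type cords the same 3 led, with Itgb3 at 4.51 ± 0.844 TPM, Itga2b at 2.87 ± 0.197 TPM and Gp1ba at 2.23 ± 0.566 TPM (SD, n = 4). Pf4 followed at 0.785 ± 0.207 TPM, then Gp9 at 0.500 ± 0.487 TPM, Ppbp at 0.124 ± 0.0838 TPM, Treml1 at 0.0898 ± 0.142 TPM and Tubb1 at 0. The steps among the last 5 lay within the SD of a neighbour in wild-type cords, whereas the steps among the first 3 and from Gp1ba to Pf4 exceeded both SDs. The same 3 genes led in knockout and wild-type cords, and the order of the lower 5 differed.

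**Figure D2:**
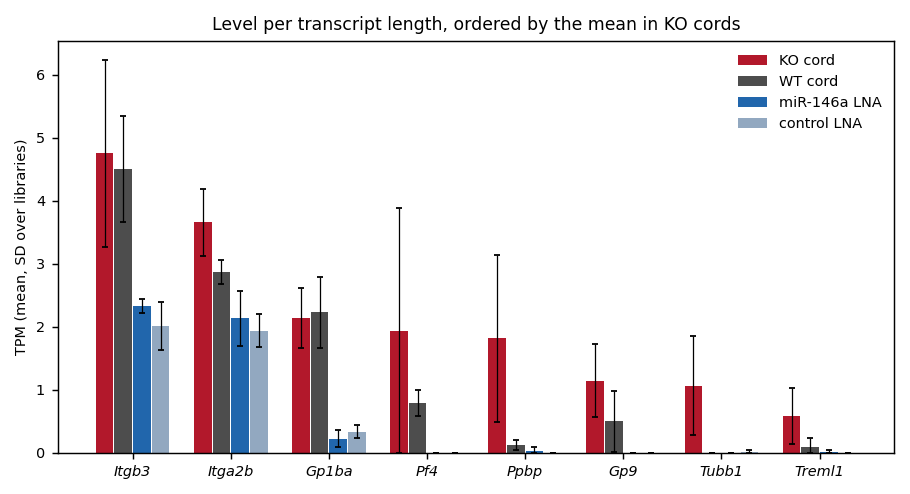
TPM of the 8 genes (vertical axis) as mean and SD over libraries of KO cords, WT cords, miR-146a LNA and control LNA cultures. Itgb3, Itga2b and Gp1ba led in both cord groups, while Pf4, Gp9, Ppbp, Tubb1 and Treml1 were at or near 0 TPM in the cultures.

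Across the knockout cords the genes did not all follow the same libraries. Tubb1, Ppbp, Pf4 and Treml1, grouped after their values were seen, summed to 0.320 through a median of 1.13 to 4.21 CPM in knockout cords, against 0.123 to 0.459 CPM in wild-type cords. Knockout replicates 3, 4, 7 and 8 were highest and the library labelled knockout replicate 9 lowest. The 4 genes made up 1.93% to 18.5% of the counts of all 8 in knockout cords and 0.762% to 3.14% in wild-type cords. All 8 genes together summed to 14.2 through a median of 17.5 to 26.7 CPM in knockout cords and to 14.6 to 17.2 CPM in wild-type cords.

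The levels of Tubb1 over the 9 knockout cords, on log2(CPM + 0.1), are set beside those of 4 other members as a description with no test, since the members were chosen on these values. With Ppbp Pearson's r was 0.749 and Spearman's rho 0.717, and r was 0.777 without knockout replicate 1 and the library labelled knockout replicate 9, which are farthest from the median of Tubb1. With Pf4 r was 0.759 and rho 0.733, and r was 0.680 without the same pair of libraries. With Treml1 r was 0.630 and rho 0.583, and r was 0.908 without that pair. With Itga2b r was 0.0869 and rho 0.0667, and r was 0.594 without that pair. Without both libraries that stand apart, r was 0.750 with Ppbp, 0.803 with Pf4, 0.583 with Treml1 and 0.00876 with Itga2b. The 9 libraries share the genotype label but differ in other cells, as given next.

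Markers of other blood and border cells stood beside these genes and their part in the result was not tested. Tubb1 was compared with Hbb-bs, S100a9 and Vwf by exact two-sided permutation tests adjusted over the 3 relations by Benjamini-Hochberg, and none passed 0.05. These 3 genes were chosen after their values were seen, and the choice of members used Tubb1. The p-values are therefore a description, and nothing is read from them. Hbb-bs, a beta-globin of red cells, had 9.02 through a median of 61.9 to 166 CPM in knockout cords, against 8.13, 10.1, 6.60 and 13.4 CPM in the wild-type cords. Knockout replicates 5 and 7 were highest, and replicate 5 had 18 Tubb1 counts, 12 Ppbp counts, 4 Pf4 counts and 4 Treml1 counts. Its correlation with Tubb1 over the knockout cords was 0.235 (exact p = 0.560, adjusted p = 0.560) with rho of -0.0333 (exact p = 0.948, adjusted p = 0.948), 0.0441 without the 2 libraries farthest in Tubb1, and -0.155 without both libraries that stand apart. S100a9, a neutrophil calprotectin subunit, had 22.1 and 17.8 CPM in knockout replicates 3 and 7, 0.0568 to 2.98 CPM in the other knockout cords and 0.0541 to 0.677 CPM in wild-type cords, with a correlation with Tubb1 of 0.489 (exact p = 0.184, adjusted p = 0.372) and rho of 0.517 (exact p = 0.162, adjusted p = 0.485), 0.492 without the same 2, and 0.454 without both libraries that stand apart.

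The listed markers were summed in CPM per library. Red cell genes, 15 of 16 found, summed to 574 to 1129 CPM in knockout cords and 519 to 574 CPM in wild-type cords, where Rhag was at 0. Sptb, which neurons also express, made up most of the wild-type sums, with means of 509.8 CPM in knockout cords and 516.5 CPM in wild-type cords. It reached at most 563 CPM in a knockout cord, against sums of 1039 and 1129 CPM in knockout replicates 5 and 7. Neutrophil genes (11) summed to 20.1 to 123 CPM in knockout cords and 27.4 to 30.1 CPM in wild-type cords. Mmp9 made up most of the wild-type sum, and 8 of 9 knockout cords were below every wild-type cord. Its means were 13.8 CPM in knockout cords and 19.5 CPM in wild-type cords. Those of Csf3r, the other of the 2 most abundant, were 20.2 CPM and 7.71 CPM. Marrow progenitor genes (11) summed to 2.74 to 12.9 CPM in knockout cords and 2.02 to 3.57 CPM in wild-type cords, where Igll1 was at 0. Lymphocyte genes (8) summed to 34.3 to 75.8 CPM in knockout cords and 42.9 to 57.9 CPM in wild-type cords. Macrophage genes of the meninges and vessels (9) summed to 29.3 to 222 CPM in knockout cords and 22.9 to 33.0 CPM in wild-type cords, and endothelial genes (9) to 317 to 598 CPM in knockout cords and 313 to 391 CPM in wild-type cords. Bone genes (12) reached 1866 CPM and muscle genes (11) 7643 CPM in knockout replicate 7, against at most 182 and 8.31 CPM in the knockout cords other than both libraries that stand apart, and 78.9 to 86.3 and 5.41 to 20.2 CPM in wild-type cords. The tested genes with an unadjusted p under 0.05 and a higher level in knockout cords were 8 of 12 for red cells, 5 of 7 for neutrophils, 1 of 4 for marrow progenitors, 2 of 4 for lymphocytes, 6 of 7 for macrophages, 3 of 9 for endothelium, 1 of 7 for bone and 0 of 7 for muscle, against 7.53% of all genes tested. Adjusted by Benjamini-Hochberg over all genes, edgeR called none of these with all libraries and 2 red cell genes without both libraries that stand apart. Among genes with a DESeq2 adjusted p, DESeq2 called 8 of 13 red cell, 3 of 8 macrophage, 1 of 10 neutrophil, 1 of 6 lymphocyte and 1 of 9 endothelial genes, all higher in knockout cords, and 0 of the 6 marrow progenitor, 7 bone and 7 muscle genes, against 1.19% of all genes higher. The marker lists were also chosen with earlier results of these data known, and nothing is read from their shares.

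**Figure D3:**
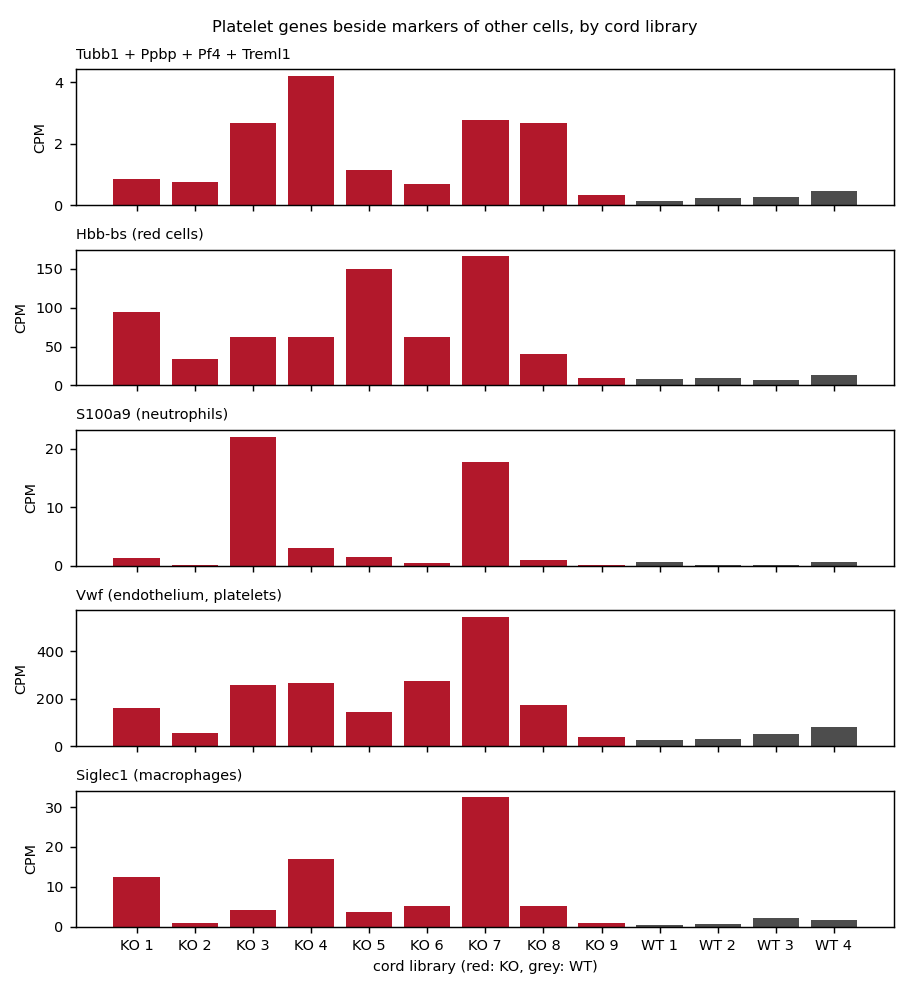
CPM (vertical axes) in each KO and WT cord library of the summed Tubb1, Ppbp, Pf4 and Treml1 (top) and of Hbb-bs, S100a9, Vwf and Siglec1. The summed platelet genes were highest in knockout replicates 3, 4, 7 and 8, Hbb-bs in replicates 5 and 7 (149 and 166 CPM), and S100a9 in replicates 3 and 7.

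Other platelet and megakaryocyte genes, listed by role, were tested in cords with edgeR's quasi-likelihood test, which called 0 of 22174 genes (0%) at an adjusted p under 0.05, 0 of the 53 listed genes that passed the filter among them. It gave 3177 genes an unadjusted p under 0.05, and DESeq2 called 345 genes. At an unadjusted p under 0.05, 24 of the 53 were higher in knockout cords (45.3%) and 5 lower, against 7.53% of all genes higher. Without 1 wild-type cord at a time, 11 to 13 listed genes were higher. Of all genes 1083 to 1208 then were, against 1670 with all libraries. Without 1 knockout cord at a time, 16 to 27 listed genes were higher. Log2 fold changes were positive for 43 of the 53, with a median of 0.52 against 0.02 for all genes. DESeq2 called 7 of the 54 listed genes to which it gave an adjusted p (13%), all higher (Selp, Cd36, Vwf, F5, F13a1, Srgn and Runx1), against 1.19% of all genes higher. The lists were chosen with earlier results of these data known, so nothing is read from these shares. Many of the listed genes are also expressed by endothelium, microglia or macrophages. Marker sums are given above for endothelium and for macrophages of the meninges and vessels, and none was made for microglia.

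Granule genes were higher at an unadjusted p under 0.05 for 6 of 10, signalling and cytoskeletal genes for 10 of 19, transcription factors for 4 of 8 and receptors for 4 of 16. Vwf, the von Willebrand factor of granules and endothelium, had 39.6 through a median of 171 to 544 CPM in knockout cords, against 27.3, 31.8, 51.4 and 81.3 CPM in the wild-type cords, with a log2 fold change of 2.15 (SE 0.67, edgeR adjusted p = 0.292, DESeq2 adjusted p = 0.0300). Its correlation with Tubb1 over the knockout cords was 0.433 (exact p = 0.248, adjusted p = 0.372) with rho of 0.350 (exact p = 0.359, adjusted p = 0.538), 0.262 without the 2 libraries farthest in Tubb1, and 0.313 without both libraries that stand apart. F13a1, the A chain of clotting factor XIII, had a log2 fold change of 1.68 (SE 0.57, edgeR adjusted p = 0.292, DESeq2 adjusted p = 0.0326). Srgn, the granule proteoglycan serglycin, had one of 1.21 (SE 0.41) and Nbeal2, needed for alpha granules in platelets, one of 0.24 (SE 0.08), both with an edgeR adjusted p of 0.292. Runx1, a transcription factor of megakaryocytes, had 2.50 through a median of 7.63 to 30.7 CPM in knockout cords, against 2.83, 2.63, 2.97 and 2.81 CPM in the wild-type cords, a log2 fold change of 1.97 (SE 0.59, edgeR adjusted p = 0.292, DESeq2 adjusted p = 0.0307). Plek, pleckstrin, had a log2 fold change of 1.56 (SE 0.48). Tuba4a, an alpha-tubulin of platelets and neurons, and Gng11, a G protein subunit, had log2 fold changes of -0.28 (SE 0.09) and -0.30 (SE 0.09), both with an edgeR adjusted p of 0.292. Without both libraries that stand apart, log2 fold changes were 1.98 for Vwf, 1.37 for F13a1, 1.08 for Srgn and 0.21 for Nbeal2. Those of Runx1, Plek, Tuba4a and Gng11 were then 1.64, 1.49, -0.23 and -0.31. EdgeR then called 0 of the 52 listed genes that passed the filter, and DESeq2 was not run without these libraries.

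The megakaryocyte factors Gata1 and Gfi1b, chosen after their values were seen, were among the 9 listed genes that did not pass the filter. Gata1 had 0 to 8 counts in knockout cords, against 2, 0, 0 and 3 in the wild-type cords, and Gfi1b had 0 to 20 counts in knockout cords, against 0 in each wild-type cord, the 20 being in knockout replicate 7. Selp, the P-selectin of platelets and activated endothelium, likewise chosen, had 564 counts in knockout replicate 7, 0 to 90 in the other knockout cords and 0, 0, 0 and 4 in wild-type cords. Its ratio of mean CPM was 78.8, and 30.3 without both libraries that stand apart, when it did not pass the filter. Gp5, which joins the von Willebrand factor receptor of Gp1ba and Gp9, averaged 2.52 CPM in knockout cords and 2.78 CPM in wild-type cords, with a log2 fold change of -0.16 (SE 0.15, edgeR adjusted p = 0.627). Selp shares exon bases with Gm16587 and Gm16548, so its counts are uncertain.

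**Figure D4:**
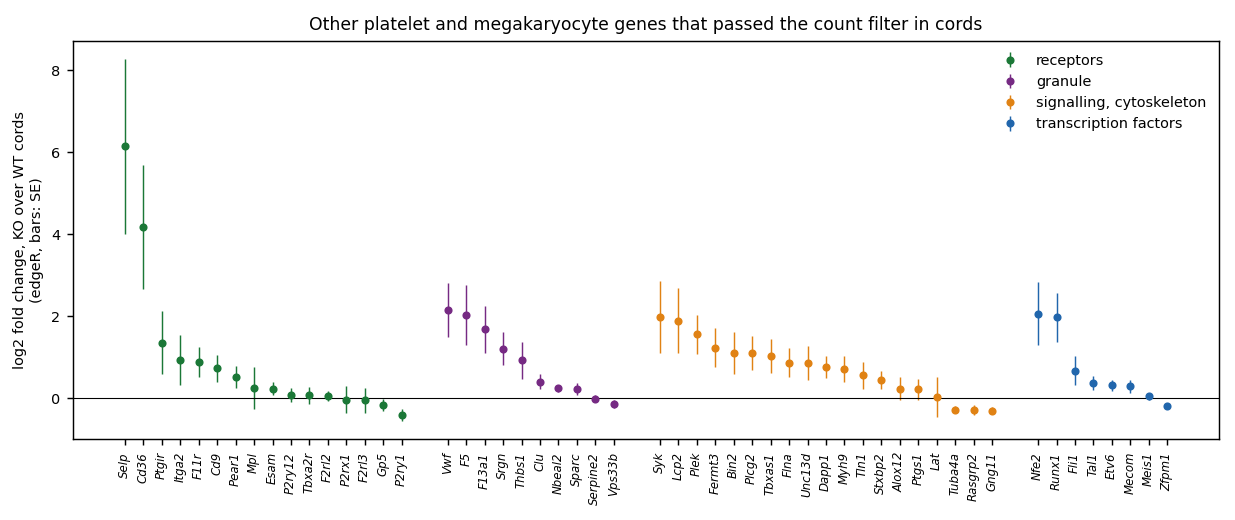
Log2 fold change of KO over WT cords (edgeR, bars for SE) of the 53 listed platelet and megakaryocyte genes that passed the count filter, by role. Of these 43 lie above 0 and none passed an adjusted p of 0.05, and Selp, highest at 6.14, has 564 of its 783 knockout counts in knockout replicate 7 and did not pass the filter without both libraries that stand apart.

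The genes whose level over the 9 knockout cords ranked most like the summed CPM of the 8 were found by Spearman's rho among 16923 genes with at least 1 CPM on average. These were Dse (rho 0.983), Hist1h2bm (rho 0.967), a histone gene with near-identical copies, and Banf1, Lipg, Rasgrp4 and Ifitm6 (rho 0.95 each). The summed level is mostly Itga2b and Itgb3, and knockout replicate 7 is its highest library. The correlations share libraries and depth and carry no test.

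The motor neuron cultures give the same genes with miR-146a blocked, in a comparison that did not choose them. Hbb-bs had at most 2 counts in any miR-146a LNA or control LNA culture. Tubb1 had 0, 0 and 0 counts in miR-146a LNA cultures and 0, 0 and 1 in control LNA cultures, and Pf4 and Gp9 had 0 in all 6 libraries. Ppbp had 0, 2 and 0 counts in miR-146a LNA cultures and Treml1 had 0, 0 and 1, and both had 0 in every control LNA culture. These 5 genes did not pass the filter and no fold is given, both groups being at or under the limit of 3 counts. Itga2b, Itgb3 and Gp1ba passed, and none passed the test, against 1635 of 19099 genes (8.56%).

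Itga2b had 153, 196 and 157 counts in miR-146a LNA cultures, against 169, 130 and 164 in control LNA cultures, with a log2 fold change of 0.13 (SE 0.21, 95% interval -0.31 to 0.58, edgeR adjusted p = 0.764). Itgb3 had 151, 246 and 217 counts in miR-146a LNA cultures, against 181, 140 and 196 in control LNA cultures, with a log2 fold change of 0.22 (SE 0.19, 95% interval -0.19 to 0.63, edgeR adjusted p = 0.548). Gp1ba had 2, 15 and 13 counts in miR-146a LNA cultures, against 16, 16 and 8 in control LNA cultures, with a log2 fold change of -0.50 (SE 0.62, 95% interval -1.80 to 0.81, edgeR adjusted p = 0.686). The counts of the LNA and control cultures overlapped for all 3 genes, and the interval of Gp1ba, with 2 to 16 counts a library, was the widest. Leaving out 1 library at a time, log2 fold changes ran from -0.02 to 0.25 for Itga2b, from 0.09 to 0.37 for Itgb3 and from -0.80 to -0.13 for Gp1ba, and Itga2b turned negative without miR-146a LNA replicate 1. Itga2b stood at 2.13 ± 0.431 TPM in miR-146a LNA cultures and 1.94 ± 0.264 TPM in control LNA cultures (SD, n = 3 each).

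Among the other listed genes 38 passed the filter in cultures, and edgeR called 6, of which 3 rose and 3 fell with the miR-146a LNA. Of all 19099 genes tested edgeR called 8.56%, 458 higher and 1177 lower. DESeq2 called 10 of the 26 listed genes to which it gave an adjusted p (38.5%), 8 higher and 2 lower, against 14.4% of all genes in either direction. As in cords, the list was chosen with earlier results known, so nothing is read from these shares. Srgn rose with a log2 fold change of 0.74 (SE 0.13, edgeR adjusted p = 0.00490), Nfe2, a transcription factor of megakaryocytes, with 0.88 (SE 0.19, edgeR adjusted p = 0.00714) and the tetraspanin Cd9 with 0.40 (SE 0.12, edgeR adjusted p = 0.0431). Runx1 fell with a log2 fold change of -0.68 (SE 0.11, edgeR adjusted p = 0.000908), Meis1 with -0.18 (SE 0.05, edgeR adjusted p = 0.0206) and the clotting factor gene F5 with -2.32 (SE 0.68, edgeR adjusted p = 0.0465). Runx1 had 12.1, 10.4 and 14.0 CPM in miR-146a LNA cultures, against 16.8, 19.8 and 20.1 CPM in control LNA cultures. In cords its log2 fold change was positive, and the difference between cords and cultures was not tested. Leaving out 1 library at a time, Runx1 kept an adjusted p of at most 0.0119, whereas the largest was 0.0623 for Nfe2, 0.0723 for Srgn, 0.116 for Meis1, 0.192 for Cd9 and 0.275 for F5. Of the listed genes edgeR called 3 without control LNA replicate 1, 2 without replicate 2 and 3 without replicate 3. The 2 next by p, Stxbp2 (adjusted p = 0.0522) and Tln1 (adjusted p = 0.0535), did not pass edgeR's test.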

How the data were processed

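RNA was sequenced in 13 libraries from mouse spinal cord and 6 from motor neuron cultures. Per the design notes, ribosomal RNA was removed, random hexamers primed reverse transcription, paired ends of 150 bases were read, STAR aligned reads to Ensembl release 101, and featureCounts kept unique, unambiguous ones. Strand setting and duplicate handling: not given in the sources used here. The count column holds whole-number counts deposited by the authors. CPM and TPM were also deposited by the authors, CPM scaled to the library total and TPM also to transcript length. Symbols came from GENCODE M21 (GRCm38) for 99.4% of genes.

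Libraries were grouped by label. Counts were tested with edgeR 4.0.16 (robust quasi-likelihood, default low-count filter, TMM) in R 4.3.3, with Benjamini-Hochberg adjustment over all genes tested and a threshold of 0.05. DESeq2 1.42.0, other scalings, no filter, a replicate block in cultures and leaving out libraries were alternatives. Exact permutation tests used scipy 1.17.1. Replicates differed beyond sampling noise in every pair (chi-square over degrees of freedom at least 6.42). The script was tested on simulated data. The members and lists were chosen with earlier results of these data known. Genes named by rule are the 8 members and the listed platelet genes called by edgeR or the 8 with the smallest p. The rule also took the 2 most abundant genes of each other list and the 6 most alike genes, and not all are named. Hbb-bs, S100a9, Gata1, Gfi1b, Selp and Gp5, among others, were added after their values were seen.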

Additional observations from a re-analysis of the deposited data

Results flagged for a closer look

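Of 15 groups tested for an outlying library, 2 held one, and chance marks about 1 in 20 groups. Itgb3 was 14.6 CPM in knockout replicate 7, far from the next knockout cord at 9.67 CPM, and that library also held the highest muscle and bone marker sums. Ppbp was 0 CPM in wild-type replicate 1, with the next wild-type cord at 0.0541 CPM, a gap of 2 counts.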

How the results depend on the processing

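Over the alternatives run, 199 values kept their direction and side of the threshold or stayed near the main value, 15 moved and 1 turned its sign. That was the log2 fold change of Itga2b in cultures, which passed no test. It ran from -0.0187 without miR-146a LNA replicate 1 to 0.253 without replicate 3, against 0.13 with all libraries, and the cause was not tested. In cords edgeR called 0 of 22174 genes, with 3177 at an unadjusted p under 0.05, and DESeq2 called 345. Leaving out 1 library gave 0 to 2 calls, and leaving out knockout replicates 7 and 9 gave 8. Of the other listed platelet genes, edgeR called 0 and DESeq2 called 7. The mean CPM of each member in knockout cords stayed within 1 SD of its main value in every alternative run. Leaving out 1 or 2 libraries cannot move such a mean by 1 SD. These values, counted among the 199, could therefore hardly have moved, and nothing is read from them. Leaving out 1 wild-type cord, chosen after seeing the data, gave ratios of means of 4.50 to 28.4 for Treml1, 1.68 to 3.96 for Gp9, 0.966 to 1.10 for Itgb3 and 0.890 to 1.05 for Gp1ba, and those of Pf4, Ppbp and Itga2b stayed within 1.5 times. In cultures leaving out 1 library gave 778 to 1985 calls over all genes, 1059 without control LNA replicate 1 and 778 without control LNA replicate 2, against 1635. The listed platelet genes gave 2 to 7 calls (3 without control LNA replicate 1, 2 without replicate 2 and 3 without replicate 3), 10 with DESeq2 and 10 with no low-count filter, against 6. The split of 458 higher and 1177 lower genes became 741 higher and 831 lower with library size alone as scaling.

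Same-numbered libraries of the cultures showed no shared deviation from their group means, with correlations of 0.00981, -0.05 and 0.00589. That cannot say whether they were made together, which the labels do not give. With the replicate block edgeR called 1793 genes in all and 7 of the listed platelet genes. Leaving out knockout replicates 7 and 9 together for the members that separate the groups and for the ratios of means was chosen after seeing the data. At the depth of these cords, Tubb1, Ppbp, Pf4, Gp9 and Treml1 lie at a few counts in most libraries, so a level in 1 library is imprecise.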
